A study of Mus musculus with 8 samples.

Results

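The mouse zinc finger genes with symbols from Zfp900 to Zfp999 were examined in embryonic stem cells (ESCs) depleted of Hira, Ubn1 or Ubn2. Members were chosen by symbol alone, and 64 of the 55418 genes in the count tables carried such a symbol. The cells were E14 ESCs, strain given as 12910la, kept without feeders in serum with leukaemia inhibitory factor. For depletion, wild-type cells were transfected with the pSuper puro vector carrying an shRNA and treated with puromycin for 3 days before mRNA libraries were sequenced. The 4 groups were Control, Hira_KD, Ubn1_KD and Ubn2_KD, with 2 libraries each. For the control, the study's methods name an shRNA against luciferase under knockdown and wild-type cells under RNA-seq, so whether the control cells were transfected and selected is not settled here. Depletion was by shRNA and left part of the targeted mRNA in place. Nothing in the labels states that the 2 libraries of a group came from separate cultures, so the p-values measure the spread between these libraries, which may be technical.

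HIRA, together with UBN1 or UBN2 and CABIN1, forms a histone chaperone complex that places histone H3.3 on chromatin outside of DNA replication. Most of the genes studied here encode KRAB zinc finger proteins, in which an array of C2H2 fingers reads DNA and the KRAB domain binds the corepressor TRIM28. TRIM28 in turn brings SETDB1, which methylates H3K9, and HP1 to the bound sites, many of which lie in endogenous retroviruses. These genes have multiplied by local duplication, so that close copies sit side by side in clusters, and deletion of such clusters in mouse ESCs is known to release particular groups of retroviral elements.

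Levels are given as CPM, counts scaled to the size of the library. Each targeted gene was lowest in its own libraries. Hira measured 89.4 and 98.8 CPM in control and 10.1 and 10.4 CPM after Hira depletion, a log2 fold change of -3.22. Ubn1 went from 53.0 and 44.6 CPM to 23.7 and 23.8 CPM in its own depletion (log2 fold change -1.03), and Ubn2 from 50.1 and 52.3 CPM to 29.9 and 24.4 CPM (log2 fold change -0.90). Total counts per library ranged from 19710040 to 32706053. The summed level of 8 ESC markers was 6432 to 6732 CPM in control and 5354 to 5840 CPM in the depleted libraries. Of these 8 markers 2, Dppa5a and Tdgf1, were called lower after Ubn2 depletion, as were 8.75% of all genes. Transcripts of 10 genes of the 2-cell-like state summed to 3.79 to 7.45 CPM in control, 18.5 to 25.7 CPM after Hira, 14.3 to 15.8 CPM after Ubn1 and 25.1 to 35.3 CPM after Ubn2 depletion. Neural markers (4 genes) summed to 217 to 226 CPM after Hira depletion against 105 to 114 CPM in control, and mesoderm and heart markers (5 genes) to 76.9 to 128 CPM after Ubn2 depletion against 7.54 to 8.76 CPM. Of the 4 neural markers 2, Nefl and Tubb3, were called higher after Hira depletion, as were 10.8% of all genes. Pax6 (log2 fold change 0.49) and Sox1 (-0.17) were not called. After Ubn1 depletion the neural sum was 142 to 167 CPM, and Tubb3 was called higher (0.62), as were 1.53% of all genes. After Ubn2 depletion Pax6 was called higher (0.65) and Nefl lower (-0.84). Trophoblast markers (4 genes) summed to 13.7 to 16.4 CPM after Hira depletion against 9.64 to 9.65 CPM in control. Of the 3 tested, Cdx2 and Hand1 were called higher. Of the 4 mesoderm and heart markers tested after Ubn2 depletion, Actc1 and Tnnt2 were called higher and carried the sum, whereas T (log2 fold change -2.36) and Myl7 (-0.95) were called lower. Over all genes 9.59% were called higher and 8.75% lower after this depletion. Among primitive endoderm and fibroblast markers, Sox17 (1.18) and Col1a1 (0.67) were called higher after Hira and Gata6 lower (-1.10) after Ubn1 depletion. After Ubn2 depletion Col3a1 was called higher (6.72 and 4.10 CPM against 0 in control) and Thy1 lower (-0.65). The part of these shifts in the results below was not tested, and in bulk RNA fewer cells of a type and less RNA per cell cannot be told apart.

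The 64 members lay on 12 chromosomes of GRCm38, and many were clustered. The largest cluster held 16 members at chr4:145510759-147848366, followed by 10 members at chr2:175372436-178078476, 10 at chr17:21567008-22867134, 4 at chr7:42579783-43192109 and 3 at chr8:69209038-69749970. In the longest open reading frame of the annotated transcripts, a KRAB box pattern was found in 57 of the 63 members with coding sequence (90.48%), against 115 of 302 other Zfp genes with a number (38.08%). Counts of C2H2 fingers ranged from 0 to 20 with a median of 11, against a median of 9 in the other numbered Zfp genes. Zfp939 is annotated as a transcribed unprocessed pseudogene. Duplication left its mark on the transcripts too: in 32 members more than 10% of the 75-base windows of the transcripts also occurred in another gene, and in 16 members more than 50% did. Reads from such windows can be assigned to the wrong copy or not counted, and the share is given below for the called members and the most highly expressed ones.

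Promoters of 5 members, 4 of them in the chromosome 4 cluster, are shown here because they include genes called and genes not called after Hira depletion. Sequences are from the RefSeq promoter table of GRCm38.p6, 250 bases before to 50 after the start, 5′ to 3′ along the strand of the gene. A RefSeq promoter was matched for 54 members, and for 49 it lay within 100 bp of the GENCODE 5′ end. Zfp987 is read from chr4:146097062-146097361 (plus strand), Zfp979 from chr4:147642459-147642758 (minus strand), Zfp980 from chr4:145670447-145670746 (plus strand), Zfp984 from chr4:147809739-147810038 (minus strand) and Zfp931 from chr2:178078376-178078675 (minus strand). Capitals mark CCAAT or its reverse complement ATTGG, the letters of the CCAAT box:
Zfp987: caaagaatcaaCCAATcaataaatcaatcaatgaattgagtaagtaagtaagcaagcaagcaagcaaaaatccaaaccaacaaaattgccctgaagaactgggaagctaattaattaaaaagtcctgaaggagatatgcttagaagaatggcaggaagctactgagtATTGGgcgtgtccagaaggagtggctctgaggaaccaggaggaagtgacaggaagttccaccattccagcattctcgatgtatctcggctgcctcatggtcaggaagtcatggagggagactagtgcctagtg
Zfp979: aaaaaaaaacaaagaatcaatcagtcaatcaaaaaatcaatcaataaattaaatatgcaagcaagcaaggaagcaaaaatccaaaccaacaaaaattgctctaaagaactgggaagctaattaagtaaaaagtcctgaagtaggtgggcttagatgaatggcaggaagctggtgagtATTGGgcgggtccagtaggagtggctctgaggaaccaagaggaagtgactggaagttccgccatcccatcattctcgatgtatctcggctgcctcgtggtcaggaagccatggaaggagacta
Zfp980: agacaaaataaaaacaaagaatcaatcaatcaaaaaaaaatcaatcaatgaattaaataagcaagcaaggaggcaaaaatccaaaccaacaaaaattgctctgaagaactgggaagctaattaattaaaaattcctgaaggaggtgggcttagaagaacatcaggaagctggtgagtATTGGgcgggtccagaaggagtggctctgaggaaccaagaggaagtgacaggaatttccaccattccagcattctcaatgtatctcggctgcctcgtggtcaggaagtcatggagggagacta
Zfp984: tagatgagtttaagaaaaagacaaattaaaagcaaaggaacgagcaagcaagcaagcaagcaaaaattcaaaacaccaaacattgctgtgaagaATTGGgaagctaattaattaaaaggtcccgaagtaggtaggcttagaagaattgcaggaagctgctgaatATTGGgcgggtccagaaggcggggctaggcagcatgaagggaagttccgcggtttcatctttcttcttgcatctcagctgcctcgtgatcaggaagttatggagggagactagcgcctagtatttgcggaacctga
Zfp931: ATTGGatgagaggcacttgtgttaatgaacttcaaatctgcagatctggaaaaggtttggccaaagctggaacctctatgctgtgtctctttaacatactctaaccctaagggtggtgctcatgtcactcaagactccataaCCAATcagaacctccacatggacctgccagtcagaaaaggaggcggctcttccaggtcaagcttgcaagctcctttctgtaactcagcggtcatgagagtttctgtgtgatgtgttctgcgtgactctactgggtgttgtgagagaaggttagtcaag
The promoters of Zfp980 and Zfp979 were identical at 91.0% of 300 bases, those of Zfp980 and Zfp987 at 87.3%, and those of Zfp987 and Zfp979 at 85.7%. The promoter of Zfp984 matched these 3 less closely, at 73.0% to 76.0%. Of the 8 chromosome 4 promoters, the 7 other than Zfp933 were identical to each other at 69.0% to 91.0% of bases, whereas Zfp933 could not be aligned with them (2.33% at most). Promoters of other clusters were not compared. All 4 chromosome 4 sequences carry ATTGG followed by gcg, and this motif starts 73 bases before the start in Zfp980 and Zfp979, 83 in Zfp987 and 86 in Zfp984. In Zfp931, on chromosome 2, a CCAAT starts 108 bases before the start. Over the 49 members, CCAAT on either strand was present in 37 promoters (75.5%), against 37.4% of all 32851 promoters in the table, and in 7 of 8 on chromosome 4. Similar promoters, such as these 7, are counted here as separate cases though they are not independent. TATAAA was in 0 of 49 (13.6% of all promoters), and the E-box letters CACGTG were in 6 (12.2%, against 7.15%). A match of letters is a description of the window and does not show binding.

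In control ESCs the members were expressed at modest levels. At least 1 count was found for 63 of 64 members, Zfp968 being the exception. In all 3 depletions 58 passed the filter on low counts, Zfp966 passed in the Hira comparison alone, and Zfp965, Zfp967, Zfp968, Zfp969 and Zfp957 passed in none. Together the members took 0.0800% to 0.106% of the counts of a library. Per kb of exon, the median control level of the 59 members tested was 3.18 CPM per kb, next to 3.02 CPM per kb for 293 other numbered Zfp genes and 3.87 CPM per kb for 19337 genes. The highest level was that of Zfp978, at 32.0 ± 3.96 CPM per kb (SD, n = 2), followed by Zfp990 at 21.1 ± 2.12, Zfp961 at 20.3 ± 0.793, Zfp979 at 14.5 ± 0.975 and Zfp982 at 14.1 ± 0.533 CPM per kb. In this order Zfp978 stood above the rest, whereas Zfp990 and Zfp961, and likewise Zfp979 and Zfp982, differed by less than their spread. Shared windows made up 66.43% of Zfp978, 11.59% of Zfp990, 1.23% of Zfp961, 23.61% of Zfp979 and 4.93% of Zfp982. Of these 5 genes, 4 belong to the chromosome 4 cluster, which supplied 44.4% of all counts on members.

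After Hira depletion, 7 members were lower and 0 were higher among 59 tested, with a call needing a fold change over 1.5 and an adjusted p under 0.05. Over all 19035 genes the shares called were 10.8% higher and 5.4% lower, so that the 7 members (11.9%) compare with 5.4% for lower genes. The genes that fell were Zfp991, Zfp930, Zfp984, Zfp931, Zfp986, Zfp987 and Zfp992, and 5 of them are members of the chromosome 4 cluster. By adjusted p alone 14 members were lower and 2 higher, where the background shares were 17.3% and 17.6%. The median log2 fold change was -0.06 for members, 0.01 for all genes and 0.05 for the other numbered Zfp genes, with 20 of 292 called higher and 14 called lower.

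Zfp991 showed the lowest fitted fold change, with 5.31 and 6.02 CPM in control and 2.71 and 2.32 CPM after Hira depletion. Its log2 fold change was -1.17 ± 0.24 (SE; adjusted p = 0.000664), and 75.9% of its windows are shared, most with the pseudogene Znf41-ps. Zfp930, on chromosome 8, measured 48.4 and 42.5 CPM in control and 26.1 and 25.2 CPM after Hira depletion, a log2 fold change of -0.83 ± 0.10 (adjusted p = 3.58e-06). None of the windows of Zfp930 (0.0%) occur exactly in the transcripts of another annotated gene. Inexact matches and unannotated copies were not searched. Zfp984 fell from 40.7 and 39.2 CPM to 23.0 and 23.3 CPM (log2 fold change -0.80 ± 0.10, adjusted p = 5.25e-06), with 40.92% of its windows shared. For these 3 genes the control and depleted libraries did not overlap, and the call held with each library left out and with every other setting tried. For called genes, here and below, a lack of overlap is a description and no separate support, since the call used the same libraries.

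Among the remaining genes called after Hira depletion, Zfp992 measured 26.1 and 27.4 CPM in control and 18.2 and 16.5 CPM in the depleted libraries (log2 fold change -0.63, adjusted p = 0.000287). Zfp987 measured 11.0 and 12.2 CPM against 6.81 and 8.28 CPM (-0.64, adjusted p = 0.00536), although 81.73% of its windows are shared. Zfp931 went from 5.94 and 5.13 CPM to 2.80 and 3.83 CPM (-0.76, adjusted p = 0.0174), and Zfp986 from 4.62 and 5.00 CPM to 3.22 and 2.74 CPM (-0.69, adjusted p = 0.0291). Both depleted libraries lay below both controls in each. The shared windows were 34.52% in Zfp992, 12.65% in Zfp931 and 77.37% in Zfp986. These calls were less firm: without Hira_KD replicate 2 the value of Zfp992 was -0.57, just inside the fold threshold, and Zfp987 was at -0.57 without Control replicate 2 and -0.50 without Hira_KD replicate 1. The adjusted p of Zfp931 was 0.0999 without Control replicate 1 and 0.14 without Hira_KD replicate 1, that of Zfp986 was 0.0601, 0.135 and 0.094 without Control replicate 1, Control replicate 2 and Hira_KD replicate 2, and DESeq2 called neither gene (adjusted p = 0.0619 and 0.0993). The highest fitted values after Hira depletion were those of the pseudogene Zfp939 (0.58, adjusted p = 0.109) and Zfp936 (0.55, adjusted p = 0.000404), neither of which was called.

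**Figure D1:**
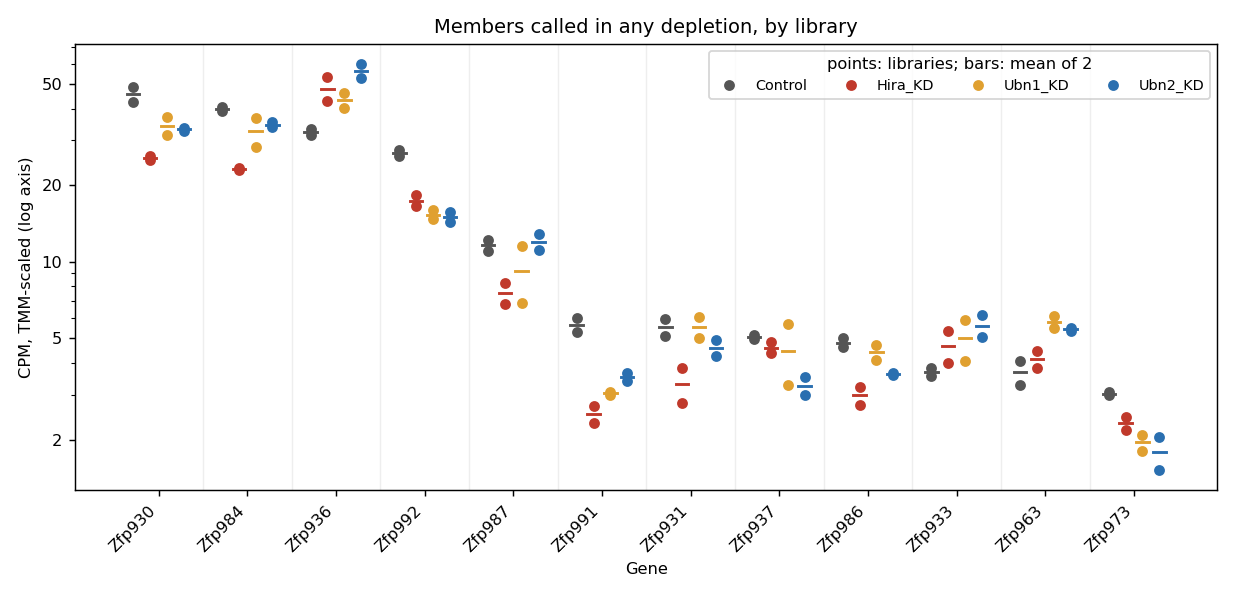
Level of the 12 members called in any depletion, in TMM-scaled CPM on a log axis, with a point for each of the 8 libraries and a bar for the mean of each group. Zfp930 and Zfp984 are lowest in the Hira_KD libraries, Zfp992 is below control in all 6 depleted libraries, and Zfp936 is above control in all 6.

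Ubn1 depletion moved few genes, and 2 members were called, both lower, with 0 higher among 58 tested. The shares over all 18373 genes were 1.53% higher and 1.56% lower, and 3.45% of members were called lower. By adjusted p alone 1 member (Zfp936) was higher and 4 lower, with background shares of 4.14% and 3.62%. Zfp992 measured 14.7 and 15.9 CPM after Ubn1 depletion, below both controls (26.1 and 27.4 CPM), a log2 fold change of -0.80 ± 0.13 (adjusted p = 8.94e-05). Zfp991 measured 3.01 and 3.08 CPM against 5.31 and 6.02 CPM in control (-0.89 ± 0.23, adjusted p = 0.0143). The adjusted p of Zfp991 was 0.142 without Control replicate 2 and 0.0656 with DESeq2, whereas the call of Zfp992 held throughout. The highest fitted values were those of Zfp963 (0.68, adjusted p = 0.0612) and Zfp935 (0.45, adjusted p = 0.189), which were not called, and every window of Zfp935 is shared. The median log2 fold change of members was -0.04, next to 0.00 (-0.002) for all genes.

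After Ubn2 depletion the members went both ways, with 3 called higher and 4 lower among 58 tested. The shares over all 18219 genes were 9.59% higher and 8.75% lower, against 5.17% and 6.9% of members. By adjusted p alone 6 members were higher and 9 lower, with background shares of 20.0% and 19.1%. The other numbered Zfp genes included 29 of 290 called higher and 15 called lower, and their median log2 fold change was 0.10 where that of members was -0.04.

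Zfp936, in the chromosome 7 cluster and with 7.35% of its windows shared, had the highest fitted value after Ubn2 depletion. It measured 31.5 and 33.3 CPM in control and 59.7 and 52.7 CPM after Ubn2 depletion, a log2 fold change of 0.81 ± 0.09 (adjusted p = 7.2e-07). In the Hira_KD libraries it measured 42.7 and 53.1 CPM and in the Ubn1_KD libraries 46.2 and 40.1 CPM, also above both controls, at log2 fold changes of 0.55 and 0.42 that stayed inside the fold threshold. Its neighbours in the cluster had log2 fold changes after Ubn2 depletion of -0.34 for Zfp976 (adjusted p = 0.0377), -0.34 for Zfp975 (adjusted p = 0.0823) and 0.10 for Zfp977 (adjusted p = 0.632).

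Zfp992 measured 15.7 and 14.3 CPM after Ubn2 depletion, a log2 fold change of -0.82 ± 0.12 (adjusted p = 1.34e-05), and Zfp991 3.66 and 3.39 CPM (-0.67 ± 0.22, adjusted p = 0.0175). Zfp992 and Zfp991 were thus called lower in each of the 3 depletions, which share the same 2 control libraries. Their transcripts also share sequence with each other, since 30.25% of the windows of Zfp992 occur in Zfp991. The other calls rested on low counts. Zfp933 measured 3.55 and 3.82 CPM in control and 6.17 and 5.06 CPM after Ubn2 depletion (0.62, adjusted p = 0.0272), and Zfp963 4.09 and 3.28 CPM against 5.35 and 5.51 CPM (0.59, adjusted p = 0.0388). Zfp937 measured 5.16 and 4.97 CPM against 3.52 and 2.98 CPM (-0.62, adjusted p = 0.0345), and Zfp973 3.07 and 2.99 CPM against 2.06 and 1.52 CPM (-0.73, adjusted p = 0.0483). Shared windows made up 0.07% of Zfp933, 37.74% of Zfp963, 18.64% of Zfp937 and 75.97% of Zfp973. The groups did not overlap in any of the 4, but DESeq2 called none of them or of Zfp991 (adjusted p from 0.106 to 0.22), and each of the 4 lost its call in 3 of the 4 fits that left out a library, where the adjusted p reached 0.2 for Zfp933 without Ubn2_KD replicate 1, 0.255 for Zfp963 without Control replicate 2, and 0.164 for Zfp937 and 0.253 for Zfp973 without Ubn2_KD replicate 2. Zfp991 was at an adjusted p of 0.101 without Control replicate 2 and 0.0641 without Ubn2_KD replicate 2. Zfp947 had the second highest fitted value (0.64, adjusted p = 0.121) and was not called.

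**Figure D2:**
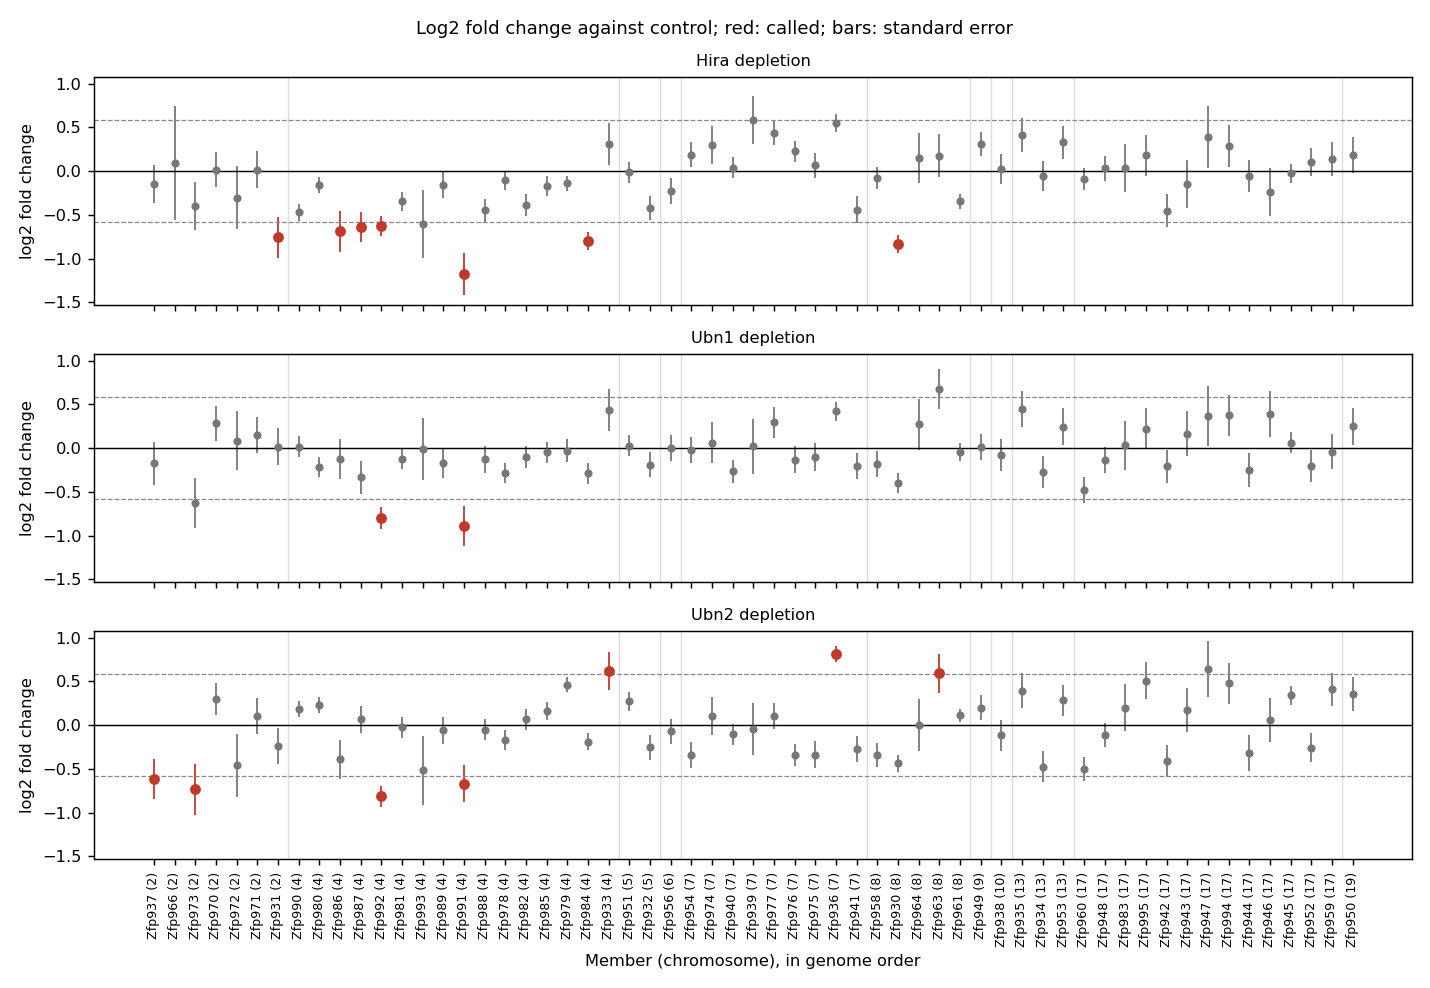
Fitted log2 fold change against control of the 59 members tested, in genome order with the chromosome in brackets, for each depletion, with standard errors as bars, called members in red and dashed lines at a fold change of 1.5. Most chromosome 4 members lie below 0 after Hira depletion, and Zfp992 and Zfp991 are red in all 3 panels.

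The chromosome 4 cluster held most of the members called after Hira depletion. Of its 16 members, 15 had a negative log2 fold change, 5 were called lower (31.2%, against 5.4% of all genes) and 0 higher (against 10.8%), and in 13 both Hira_KD libraries lay below both controls. The median log2 fold change was -0.42, and -0.29 to -0.53 with each library left out. The 16 members are counted as separate cases, though several share sequence with each other and are not independent. In Zfp988, for example, 42.99% of the windows occur in Zfp987. In the 43 tested members outside this cluster 25 values were positive and 18 negative, 2 were called lower (4.65%), and the median was 0.03. Both Hira_KD libraries lay below both controls in 11 of these 43 members and above both in 13. In the cluster 1 member lay above. Among the 292 other numbered Zfp genes tested, both lay below in 76 and above in 101. How often the libraries of all genes lay apart in this way was not computed, so these counts have no background share. The summed level of the 16 genes was 471 and 430 CPM in control, 340 and 377 CPM after Hira, 453 and 351 CPM after Ubn1 and 502 and 428 CPM after Ubn2 depletion. The Hira_KD sums were below both controls, whereas the Ubn1_KD and Ubn2_KD sums overlapped with control. The depletions differed in strength, with the targeted mRNA at a fold of 0.108 for Hira, 0.490 for Ubn1 and 0.538 for Ubn2. The part of this in the contrast was not tested. By adjusted p alone 9 of the 16 were lower after Hira depletion, which adds Zfp990 (79.0 and 68.5 CPM in control, 48.8 and 58.4 CPM after Hira depletion, log2 fold change -0.47, adjusted p = 0.000781), Zfp988 (-0.45), Zfp982 (-0.38) and Zfp981 (-0.35) to the genes called. The adjusted p of Zfp982 was 0.0236, and 0.114 without Control replicate 1 or 0.177 without Hira_KD replicate 1. In the 3 cluster members with under 10% of their windows shared, the log2 fold changes were -0.38 for Zfp982 (4.93% shared), -0.17 for Zfp985 (4.36% shared, adjusted p = 0.25) and 0.31 for Zfp933 (0.07% shared, adjusted p = 0.333), and none of them was called.

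The genes of the chromosome 4 promoters shown above included both called and uncalled genes. After Hira depletion the log2 fold changes were -0.64 ± 0.17 for Zfp987, -0.80 ± 0.10 for Zfp984, -0.16 ± 0.09 for Zfp980 and -0.14 ± 0.09 for Zfp979, the last 2 not called (adjusted p = 0.204 and 0.234). After Ubn2 depletion Zfp979, with 62.5 and 56.8 CPM in control and 86.9 and 74.8 CPM in the depleted libraries, was higher at 0.46 ± 0.09 (adjusted p = 0.000222), which did not reach the fold threshold. The differences between these genes were not tested.

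After Ubn1 depletion 14 of the 16 cluster members had a negative value, 2 were called lower (12.5%, against 1.56% of all genes) and the median was -0.13, but this rested on the library. Without Ubn1_KD replicate 1 the median was -0.34, and without Ubn1_KD replicate 2 it was -0.02. After Ubn2 depletion 9 of 16 were negative, 2 were called lower (12.5%, against 8.75% of all genes) and 1 higher (6.25%, against 9.59%), and the median was -0.04. It was -0.23 without Ubn2_KD replicate 1 and 0.13 without Ubn2_KD replicate 2.

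**Figure D3:**
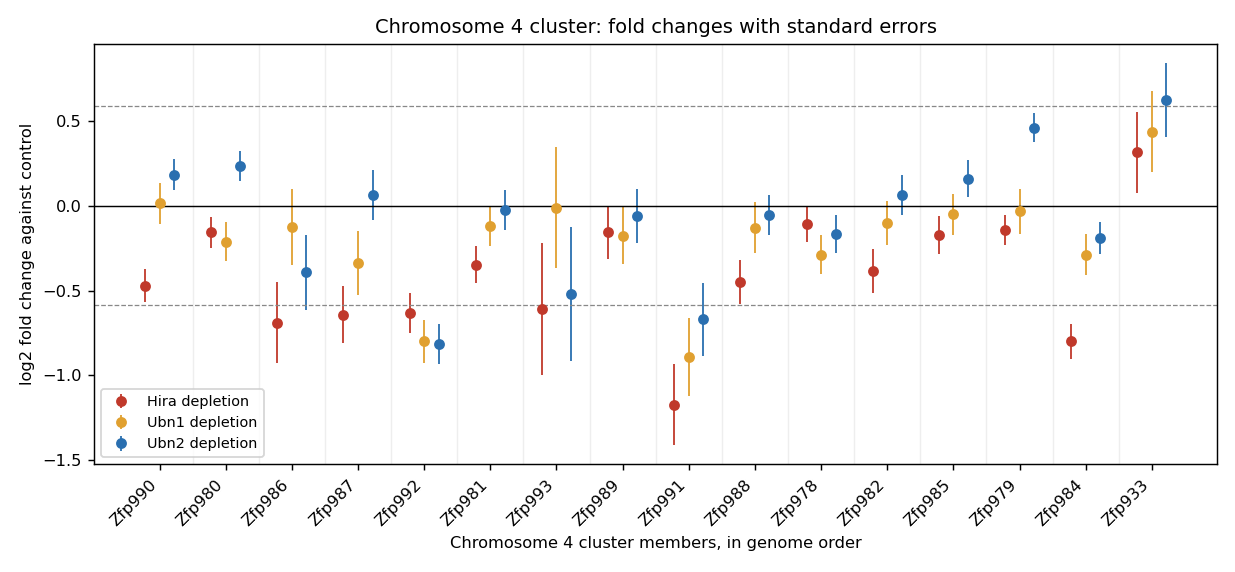
Fitted log2 fold changes against control, with standard errors, of the 16 members of the chromosome 4 cluster in genome order, with a colour for each depletion and dashed lines at a fold change of 1.5. After Hira depletion 15 of 16 values are below 0, Zfp992 and Zfp991 are low in all 3 depletions, and Zfp979 and Zfp933 are highest after Ubn2 depletion.

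Hira and Ubn2 depletion were then compared directly. Hira mRNA was depleted further (fold 0.108 against control) than Ubn2 mRNA (0.538), and the part of this in the differences was not tested. Of 58 members tested, 2 were called, both lower after Hira than after Ubn2 depletion, and 0 were higher. The shares over all 18563 genes were 12.0% higher and 5.61% lower after Hira, against 0 and 3.45% of members. By adjusted p alone 4 members were higher and 10 lower after Hira depletion, with background shares of 18.6% and 17.2%. Zfp987 measured 6.81 and 8.28 CPM after Hira and 12.8 and 11.1 CPM after Ubn2 depletion (log2 difference -0.68 ± 0.17, adjusted p = 0.00609), and Zfp990 48.8 and 58.4 CPM against 89.8 and 75.01 CPM (-0.63 ± 0.10, adjusted p = 0.000267). Neither pair of groups overlapped, but without Hira_KD replicate 1 the differences were -0.54 and -0.50, and without Ubn2_KD replicate 1 they were -0.58 and -0.50, inside the fold threshold. In the chromosome 4 cluster 14 of 16 members were lower after Hira than after Ubn2 depletion, with a median log2 difference of -0.34, and -0.26 to -0.48 with each library left out. In the 42 tested members outside it 21 differences were positive and 21 negative, and their median was 0.01. Zfp984 and Zfp979, at differences of -0.58 each (adjusted p = 0.000462 and 0.000171), stood just inside the fold threshold of 0.585. The 4 members higher after Hira depletion by adjusted p alone were Zfp976 (0.58, adjusted p = 0.0021), Zfp954 (0.56, adjusted p = 0.0101), Zfp960 (0.43, adjusted p = 0.0192) and Zfp975 (0.43, adjusted p = 0.0257). Hira and Ubn1 depletion were not compared directly here.

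**Figure D4:**
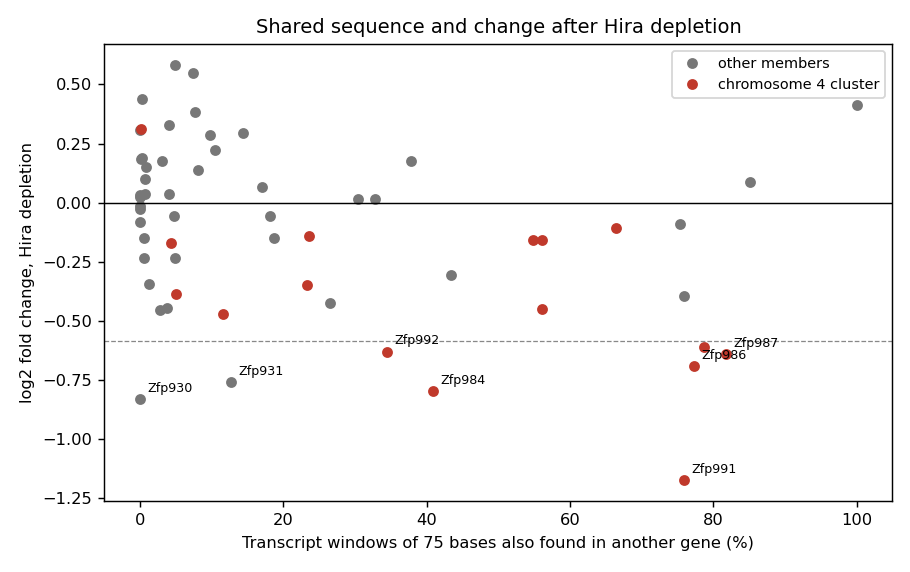
Log2 fold change after Hira depletion of the 59 members tested, against the percent of 75-base transcript windows that also occur in another gene, with the chromosome 4 cluster in red, the called members named and a dashed line at a fold change of 1.5. Called members range from 0.0% (Zfp930) to 81.73% (Zfp987) of shared windows.

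Many of the called members carry shared sequence. Of the 12 members called in any depletion, 9 had more than 10% of their windows shared, as had 28 of the 59 members tested after Hira depletion. After Hira depletion 6 of these 28 members were called lower (21.4%), with a median log2 fold change of -0.16. Of the 31 with less shared sequence 1 was called lower (3.23%), with a median of 0.04. Over all genes 5.4% were called lower. The chromosome 4 cluster makes up much of the set with more than 10% shared windows, so position and shared sequence cannot be told apart for those genes. The 10 members of the chromosome 17 cluster included 0 calls in any depletion under edgeR, with medians of 0.00 (0.004) after Hira, 0.11 after Ubn1 and 0.18 after Ubn2 depletion. Of all genes 10.8% were called higher and 5.4% lower after Hira depletion. These shares were 1.53% and 1.56% after Ubn1 and 9.59% and 8.75% after Ubn2 depletion.

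A list of 40 genes that act with KRAB zinc finger proteins, on H3K9 methylation or on H3.3 was read as well. It also holds DNA methylation genes, such as Dnmt3l and Uhrf1, and zinc finger genes, such as Zfp57. After Hira depletion 3 of 40 were called lower (7.5%, against 5.4% of all genes) and 0 higher (against 10.8%). By adjusted p alone 16 were lower (40.0%, against 17.3%) and 4 higher (10.0%, against 17.6%). Dnmt3l, a cofactor of the de novo DNA methyltransferases, measured 274 and 306 CPM in control and 134 and 170 CPM after Hira depletion (log2 fold change -0.94). Uhrf1, which guides Dnmt1 to replicated DNA, measured 534 and 546 CPM against 321 and 364 CPM (-0.67), and Zfp57, a KRAB zinc finger gene that guards imprinted methylation, 476 and 503 CPM against 294 and 349 CPM (-0.62). Trim28 measured 1750 and 1942 CPM in control and 1179 and 1392 CPM after Hira depletion (-0.53), inside the fold threshold. After Ubn1 depletion 0 of 40 were called in either direction by edgeR (against 1.53% higher and 1.56% lower of all genes), with 2 lower by adjusted p alone (5.0%, against 3.62%). After Ubn2 depletion Atf7ip, a partner of Setdb1, was the only gene of the list called (2.5%, against 9.59% of all genes higher). It measured 102 and 115 CPM in control and 176 and 161 CPM in the depleted libraries (0.65). By adjusted p alone 13 of the 40 were higher (32.5%, against 20.0%) and 6 lower (15.0%, against 19.1%). In the direct comparison Dnmt3l (-0.96), Zfp57 (-0.88) and Trim28 (-0.71) were called lower after Hira than after Ubn2 depletion (7.5%, against 5.61% of all genes), and 0 were called higher (against 12.0%).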

How the data were processed

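RNA-seq was performed on E14 ESCs in 4 groups of 2 libraries. Per the labels and methods, reads were trimmed by the authors with Trim Galore, mapped with STAR (GRCm38) and assigned to genes with featureCounts. They deposited raw counts per gene in 3 tables, each with the control libraries and 1 depletion. Tool versions, strand setting and the treatment of multi-mapping reads are not given in the sources used here. Control counts were identical in the 3 tables (0 differing values) and were used once. No fold changes of the authors were used.

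Each comparison was fitted across all genes on its 4 libraries with edgeR 4.0.16 (TMM, filterByExpr, quasi-likelihood test) in R 4.3.3, with Benjamini-Hochberg adjustment. Genes were called at a fold change over 1.5 with an adjusted p under 0.05. CPM values are TMM-scaled. The script was tested on simulated data. Alternatives were DESeq2 1.42.0, other size factors, other filters, 1 fit of all 8 libraries, a replicate block, adjusted p alone, and each library left out. Total counts were 19710040 to 32706053, with 2 libraries a group.

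Positions, exon lengths and transcripts came from GENCODE M21 (55303 symbols matched 1 gene, 115 did not, and all 64 members matched). Shared sequence is the percent of 75-base transcript windows found exactly in another gene. Clusters join members less than 1000000 bp apart. Promoters within 100 bp of the GENCODE 5′ end were aligned with Biopython 1.88, with end gaps free. Named were the targeted genes, all members called, the 5 with the highest control level per kb, the 2 highest and 2 lowest fold changes per depletion and called genes of the list of partners and chromatin genes. Further members were named after their values were seen, as neighbours, by adjusted p alone or with a printed promoter. Members and lists were chosen with earlier results of these data known.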

Additional observations from a re-analysis of the deposited data

How the results depend on the processing

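Of 18 calls of members in the 4 comparisons, 6 held with each library left out and under all 6 other settings (Zfp930, Zfp984 and Zfp991 after Hira, Zfp992 after Ubn1, Zfp992 and Zfp936 after Ubn2 depletion), and no named value changed sign while called. Counts by adjusted p alone were 2 higher and 14 lower after Hira, 1 and 4 after Ubn1, 6 and 9 after Ubn2 depletion, and 4 and 10 in the direct comparison. DESeq2 called 1 lower after Ubn1, 1 higher and 1 lower after Ubn2 and 4 lower in the direct comparison. DESeq2 size factors in edgeR gave 4 lower in the direct comparison, a minimum of 10 counts in every library gave 1 higher there, and 1 fit of all 8 libraries gave 2 lower after Ubn2 depletion. With each library left out, counts ranged from 0 to 1 higher and 5 to 8 lower after Hira, 0 to 0 higher and 1 to 4 lower after Ubn1, 1 to 3 higher and 1 to 6 lower after Ubn2, and 0 to 2 higher and 0 to 6 lower in the direct comparison; the lone library of an arm was assumed to vary like the others. The lowest of these were reached without Control replicate 2 for Ubn1 (1 lower) and Ubn2 (1 higher, 1 lower), with 2 lower after Ubn2 without Control replicate 1, without Ubn2_KD replicate 1 (1 higher) and replicate 2 (1 lower), and without Hira_KD replicate 1 or Ubn2_KD replicate 1 in the direct comparison (0 lower each). The highest were reached without Hira_KD replicate 1 for Hira (1 higher), without Ubn1_KD replicate 1 (4 lower) and, in the direct comparison, without Hira_KD replicate 2 (2 higher, 6 lower) or Ubn2_KD replicate 2 (2 higher, 4 lower). The causes were not tested beyond the smaller number of libraries.

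Groups share replicate numbers, but with 2 libraries each the numbers do not establish pairs: correlations of the deviations from the group means, over 19253 genes, were 0.10, 0.05 and -0.04 between Control and Hira_KD, Ubn1_KD and Ubn2_KD. A replicate block left the counts at 0 higher and 7 lower after Hira, 3 and 4 after Ubn2, and 0 and 2 in the direct comparison, and gave 1 higher and 2 lower after Ubn1 depletion.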

Other observations

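The span of the chromosome 4 cluster also holds genes that carry no symbol from Zfp900 to Zfp999, of which 36 were tested after Hira depletion. Their median log2 fold change was 0.32, against -0.42 for the 16 members in the same span, with 7 called higher (19.4%, against 10.8% of all genes) and 2 lower (5.56%, against 5.4%). Of the 7 higher, 6 are annotated as pseudogenes and 0 as protein-coding. Most of the 36 genes tested are themselves annotated as pseudogenes, so the 6 are not a result about pseudogenes. The 2 called lower were Zfp534 and Gm13147. Zfp534, which is protein-coding, measured 22.9 and 22.1 CPM in control and 12.3 and 15.7 CPM after Hira depletion (log2 fold change -0.70, adjusted p = 0.000404). Gm13147, annotated as a transcribed unprocessed pseudogene, measured 30.1 and 25.6 CPM against 16.1 and 17.2 CPM (-0.75, adjusted p = 8.0e-05). The other tested protein-coding genes among them also had negative values, without a call: Gm13212 (-0.58), Gm21411 (-0.41), Rex2 (-0.22) and Zfp600 (-0.04). Negative values without a call were also found among the pseudogenes, such as Gm13234 (-1.31) and Znf41-ps (-0.61). Over the 36 genes 21 values were positive and 15 negative. All of these were named after their values were seen. In the span, 36 genes without such a symbol were tested after Ubn1 depletion. Their median was -0.14, with 0 called higher and 1 lower by edgeR (2.78%, against 1.56%). After Ubn2 depletion 7 of 33 were called higher (21.2%, against 9.59%), 6 of them pseudogenes, and 0 lower by edgeR (against 8.75%), with 1 lower by adjusted p alone. Here too most of the genes tested are pseudogenes.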
